A study of Mus musculus with 15 samples.

Results

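The 9 genes described here are the NF-kB feedback and subunit genes Nfkbia, Nfkbie, Nfkb1, Nfkb2, Relb, Tnfaip3 and Birc3 and the leukocyte adhesion genes Vcam1 and Icam1. They were taken by name as known products of NF-kB signaling, out of 21839 genes in the table of counts. Earlier results of these data were known when they were chosen, so the choice is not independent of the data. All 9 passed the filter on low counts. RNA came from lymphatic endothelial cells of C57bl/6 mice of 10 weeks, all of which carried a transplanted melanoma of a line that promotes lymphatic growth. The cells were sorted as CD45 negative, CD31 positive and gp38 positive from 3 sites, with 5 libraries each. The sites were the tumor (Tumor), the lymph node that drains it (TdLN) and a lymph node that does not (NdLN). No group came from mice without a tumor, so NdLN cells are the reference only for drainage. Both sites that Tumor is compared with are lymph nodes. Being in a tumor and being outside a lymph node therefore cannot be told apart in the Tumor comparisons. The labels do not tell whether the 5 libraries of a site are from 5 mice, from pooled mice or from repeat preparations. Each p-value therefore describes scatter between libraries, which may be technical.

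NF-kB is a family of dimeric transcription factors held in the cytoplasm by IkB proteins until a receptor activates the IkB kinases. In the canonical branch, signals such as TNF, IL-1 or Toll-like receptor ligands lead to loss of IkB-alpha, the product of Nfkbia, and release dimers that contain p50, made from Nfkb1. In the alternative branch, lymphotoxin, RANK ligand and related signals stabilize the kinase NIK, encoded by Map3k14, which drives processing of the Nfkb2 product p100 to p52, the partner of RelB. Many of the induced genes encode inhibitors of the pathway, so their RNA is often read as a record of recent activity. VCAM-1 and ICAM-1 are the endothelial ligands of the leukocyte integrins VLA-4 and LFA-1, and lymphatic endothelium uses them in the passage and retention of leukocytes.

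Promoter sequence was available from RefSeq (GRCm38.p6) for 6 of the 9 genes: Birc3, Icam1, Nfkb2, Nfkbia, Nfkbie and Tnfaip3. Nfkb1, Relb and Vcam1 had no entry. The 250 bases before each start were searched on both strands for GGNNNTTCC, which reads GGAANNNCC on the other strand. This is the core shared by many NF-kB sites, and it was chosen after the sequences were seen. It was present in 5 of the 6 genes, all but Birc3, and in 17.63% of the 27025 genes in the table. The stricter kB consensus was present in 4 of the 6 and in 4.455% of all genes. The lines that follow show where these letters stand in the 4 genes whose matches lie outside annotated exons, as the sequence beside which the RNA values can be read. Each line runs 5′ to 3′ on the strand of the gene, with the matches to the core on either strand in capitals. Nfkb2 held matches in annotated exons, and Icam1 and Tnfaip3 each held 1 further window with a match, none of which is printed.
Nfkbia, chr12:55492803-55492872, minus strand: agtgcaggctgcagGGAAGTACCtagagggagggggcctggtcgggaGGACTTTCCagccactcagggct
Nfkbia, chr12:55492654-55492690, minus strand: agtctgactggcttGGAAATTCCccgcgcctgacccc
Nfkbie, chr17:45555581-45555646, plus strand: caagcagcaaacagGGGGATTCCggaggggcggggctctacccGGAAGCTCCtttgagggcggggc
Tnfaip3, chr10:19015411-19015448, minus strand: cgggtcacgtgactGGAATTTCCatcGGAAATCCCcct
Icam1, chr9:21015773-21015809, plus strand: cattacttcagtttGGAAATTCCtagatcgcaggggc
The Nfkbia and Icam1 windows share the letters GGAAATTCC, at 29 and 153 bases before the respective start. The printed Tnfaip3 window stands before a RefSeq start that lies inside the annotated span of the gene (19000910 to 19015657). A match describes the sequence only, and binding was not measured.

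Total counts per library ran from 23830337 to 37437282. Levels are given as CPM, which are counts divided by the TMM-scaled size of each library, and the smallest count behind any value of the 9 genes was 216. Reads were amplified without molecular identifiers, so counts are not independent molecules. Prox1, the regulator that defines lymphatic identity, was at 674 to 809.7 CPM in NdLN, 441 to 625 in TdLN and 73.5 to 132 in Tumor libraries. Of 9 lymphatic and pan-endothelial markers, 7 were lower in Tumor than in TdLN and 2 were not called. Levels in Tumor were not equally low for all of them. Stab2 averaged 2.64 CPM in Tumor, 1053 in TdLN and 1381 in NdLN. Mmrn1 averaged 722, 2616 and 4001 CPM in the same order. Pdpn, the gene of the gp38 protein used in the sort, averaged 116 CPM in Tumor, 120.1 in TdLN and 124 in NdLN. Lyve1, a hyaluronan receptor gene of lymphatic vessels, averaged 858, 1680 and 977 CPM in Tumor, TdLN and NdLN. Ptprc, the gene of the CD45 protein that the sort removes, was at most 8.80 CPM in any library. The 9 melanoma and pigment genes in the table summed to 12.0 to 37.8 CPM in node libraries and to 24369 to 39998 CPM in Tumor libraries, which is 2.68% to 4.16% of all counts there. In bulk libraries, fewer lymphatic cells and less RNA per lymphatic cell cannot be told apart. For this reason each Tumor comparison of the 9 genes is also given after scaling to 10 pan-endothelial and lymphatic genes (Pecam1, Cdh5, Tie1, Esam, Egfl7, Eng, Erg, Robo4, Prox1 and Flt4). The library Tumor 1 stood apart, with the lowest sum of these 10 genes, 1802 CPM against 2534 to 3414 CPM in the other Tumor libraries. TdLN 3 also stood apart, with 860 of 9184 well-expressed genes more than 1 log2 unit under the mean of its group and 9 above it.

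**Figure D1:**
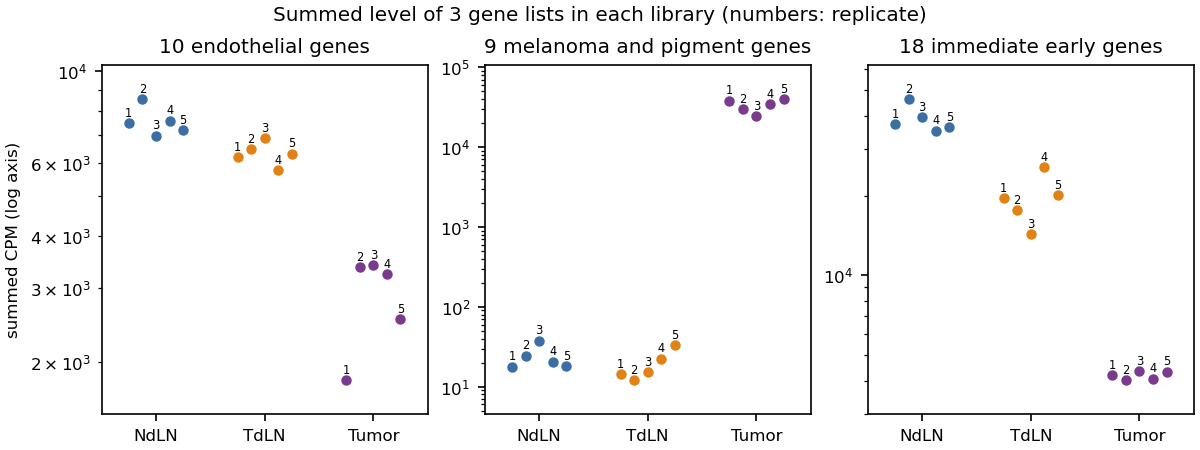
Summed CPM (log axis) of the 10 endothelial genes, the 9 melanoma and pigment genes and the 18 immediate early genes in each library, by group; numbers are replicates. The endothelial sum lay between 1802 and 3414 CPM in Tumor libraries, under all 10 node libraries, and the pigment sum lay far above them.

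Between the nodes, 1 of the 9 genes passed the test. Nfkbia, the gene of the IkB-alpha inhibitor and the best known feedback target of the pathway, was lower in TdLN, at a Benjamini-Hochberg adjusted p under 0.05 in edgeR's quasi-likelihood fit. Over all 13887 genes tested, 1.64% were called lower and 1.84% higher in this comparison. The median log2 fold change of the 9 was -0.18, beside -0.01 over all genes. At an unadjusted p under 0.05, 3 of the 9 differed (Nfkbia, Tnfaip3 and Icam1), but the edgeR adjusted p of Tnfaip3 and Icam1 was 0.268 and 0.258. The share of all genes under that unadjusted threshold was not counted, so the 3 are not read as a shift of the set.

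In the tumor, all 9 genes were lower than in TdLN and lower than in NdLN, with no overlap between the libraries. The background is high. Against TdLN, 30.1% of all genes were called lower and 31.9% higher, and 22.5% had all Tumor libraries under all TdLN libraries. Against NdLN these shares were 32.5%, 34% and 27%. The median log2 fold change of the 9 was -2.90 against TdLN and -3.10 against NdLN, beside 0.04 for all genes in both. Scaled to the endothelial genes, the median of all genes moved to 1.48 and 1.74, with 72.5% and 75.7% called higher and 8.46% and 8.04% called lower. On that scale 8 of the 9 genes were still lower in the tumor, and Nfkb1 was higher. The endothelial genes did not fall equally. With TMM scaling their log2 fold changes ran from -0.46 (Flt4) to -2.36 (Prox1) against TdLN and from -0.48 to -2.87 against NdLN. Nfkb2, Relb, Tnfaip3, Birc3, Vcam1 and Icam1 fell further than Prox1 in both comparisons. Nfkbia (-2.29 and -2.75) and Nfkb1 did not, and Nfkbie (-2.52) did not against NdLN. Scaling to other sets of endothelial genes was not tested. Both Tumor comparisons use the same Tumor libraries, and both node groups enter 2 comparisons, so these results are not independent.

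**Figure D2:**
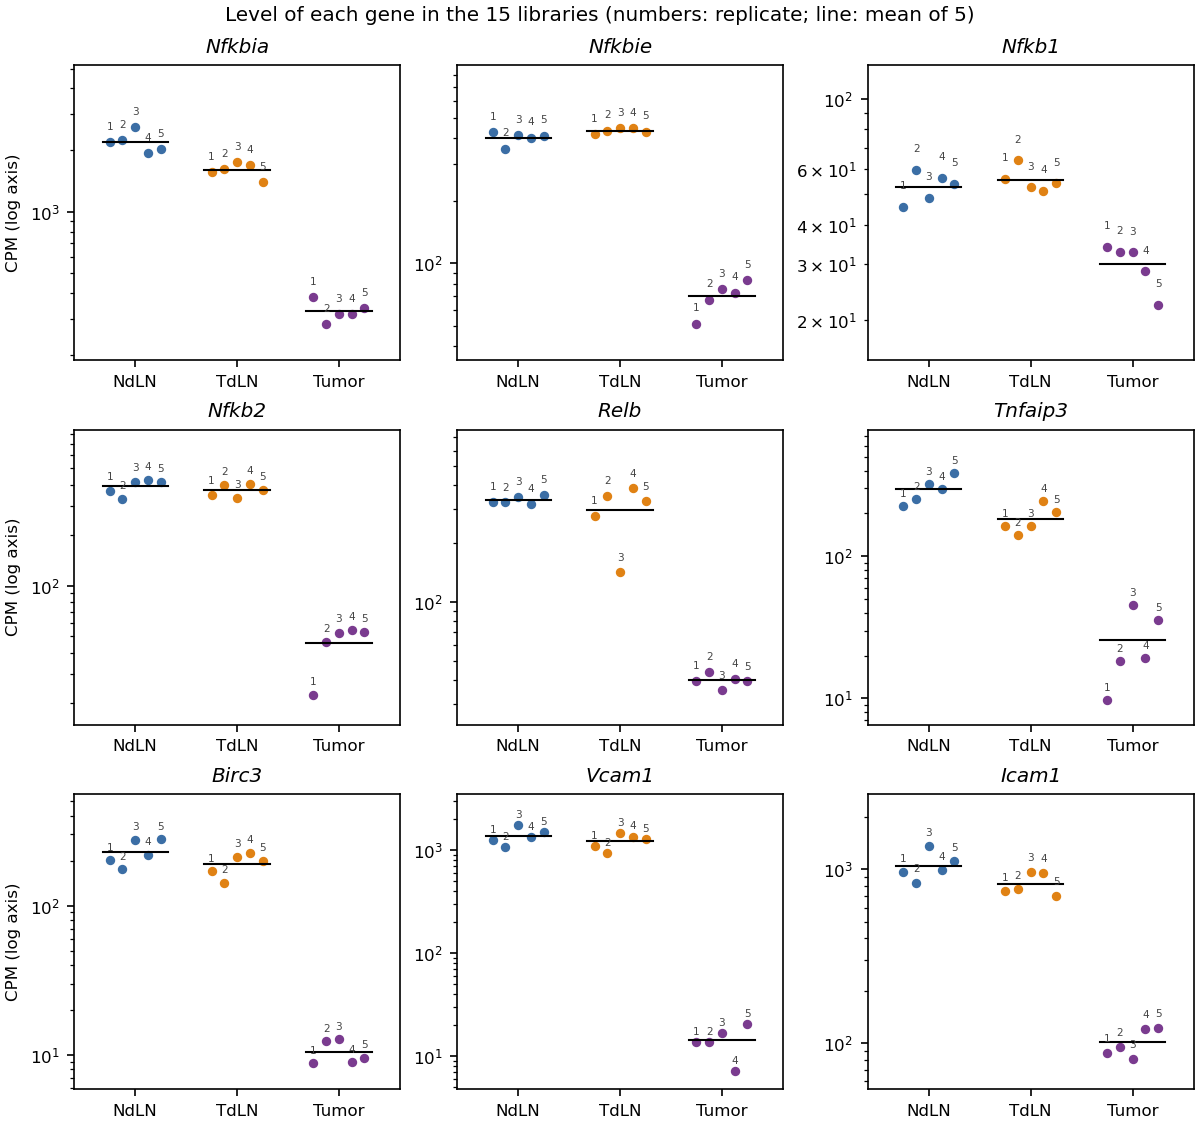
CPM (log axis) of each of the 9 genes in the 15 libraries; points are libraries numbered by replicate and the line is the mean of 5. In every panel the 5 Tumor libraries lie under all node libraries, by little for Nfkb1 (22.3 to 34.0 against 45.5 to 63.9 CPM) and by far for Vcam1 (7.12 to 20.3 against 941 to 1744 CPM).

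**Figure D3:**
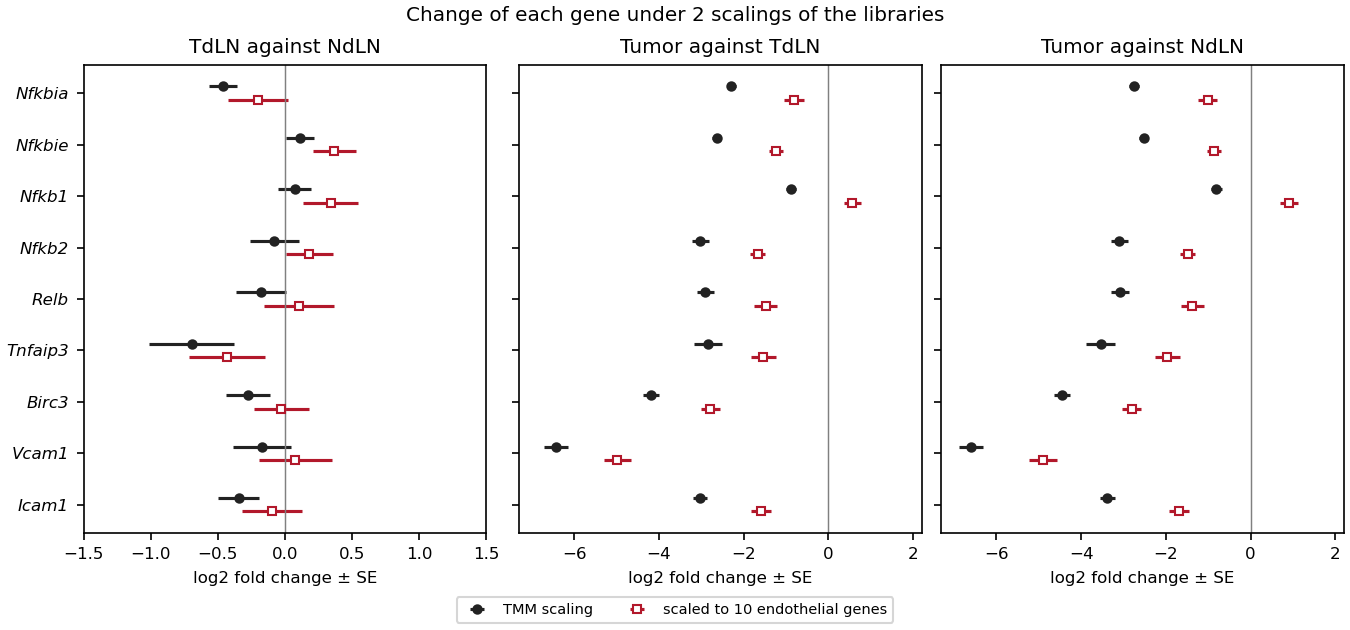
Log2 fold change ± SE of the 9 genes in the 3 comparisons, with TMM scaling (filled circles) and with scaling to 10 endothelial genes (open squares). In both Tumor comparisons Nfkb1 lies left of 0 with TMM scaling and right of 0 with endothelial scaling, and the other 8 genes stay left of 0.

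Among the IkB inhibitors, Nfkbia lies on the minus strand of chromosome 12 (GRCm38 positions 55489410 to 55492647). Nfkbia was measured at 2194, 2242, 2595, 1942 and 2028 CPM in NdLN 1 to 5. TdLN libraries had 1563, 1608, 1744, 1696 and 1394 CPM. Tumor libraries had 382, 282, 316, 315 and 339 CPM. The 3 groups did not overlap, and their order was NdLN, TdLN, Tumor. The log2 fold change of TdLN against NdLN was -0.46 ± 0.10 (SE), with an edgeR adjusted p of 0.0263, and 4.95% of all genes also had all TdLN libraries under all NdLN libraries. The call depended on single libraries. It was lost when any of NdLN 1, NdLN 2, NdLN 3, TdLN 1, TdLN 2 or TdLN 5 was left out, with edgeR adjusted p between 0.0521 and 0.0713, while the fold change stayed between -0.50 and -0.39. With endothelial scaling it was -0.20 (edgeR adjusted p = 0.634). Tumor against TdLN gave -2.29 ± 0.11 and Tumor against NdLN -2.75 ± 0.11 (edgeR adjusted p = 1.7e-10 and 3.0e-11). With endothelial scaling these were -0.81 and -1.01, with adjusted p of 0.00328 and 0.000513.

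Immediate early genes, a class induced fast by many stimuli, tissue handling among them, moved in the same order of groups as Nfkbia. Their 18 genes summed to 35163 to 46304 CPM in NdLN, 14272 to 25673 in TdLN and 4004 to 4348 in Tumor libraries. In TdLN 13 of 18 were lower than in NdLN. Their part in the Nfkbia result was not tested.

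Nfkbie encodes IkB-epsilon, a further inducible inhibitor, and lies on chromosome 17 (45555703 to 45563169, plus strand). Nfkbie was at 426, 356, 415, 402 and 411 CPM in NdLN and at 417, 435, 445, 447 and 429.6 CPM in TdLN libraries. The node groups overlapped, and the log2 fold change was 0.11 ± 0.11 (edgeR adjusted p = 0.639). Tumor libraries were at 51.4, 67.0, 75.4, 72.4 and 83.2 CPM, all under the nodes, with Tumor 1 the lowest. Against TdLN the log2 fold change was -2.64 ± 0.11 and against NdLN -2.52 ± 0.11 (edgeR adjusted p = 6.3e-11 and 8.0e-11). With endothelial scaling these were -1.23 and -0.86.

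The inhibitors shifted against each other between the nodes. The log2 ratio of Nfkbie to Nfkbia counts within a library does not depend on how libraries are scaled. RNA of other cells can still enter both counts, and its part in this and the later ratios was not tested. The ratio was -2.37, -2.66, -2.65, -2.27 and -2.30 in NdLN and -1.91, -1.89, -1.97, -1.92 and -1.70 in TdLN libraries. All TdLN values were above all NdLN values, by 0.57 on average (exact two-sided permutation p = 0.00794, 5 against 5, the smallest this design gives). The Benjamini-Hochberg value over the 9 ratio tests was 0.0119. In Tumor libraries the ratio was -2.89, -2.08, -2.07, -2.12 and -2.03. All were under the TdLN values, by 0.36 (exact permutation p = 0.00794, adjusted 0.0119). Tumor 1 set much of that size, and without it the difference was -0.20 (exact permutation p = 0.0159). Against NdLN the difference was 0.21 (exact permutation p = 0.278, adjusted 0.278), and without Tumor 1 it was 0.38 (exact permutation p = 0.0159).

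Of the NF-kB subunits, Nfkb1, on chromosome 3 (135584655 to 135691547, minus strand), encodes p105 and p50. Nfkb1 stood at 45.5, 59.6, 48.6, 56.2 and 53.8 CPM in NdLN and at 55.8, 63.9, 52.5, 51.3 and 54.0 CPM in TdLN libraries. The node groups overlapped almost fully (log2 fold change 0.07 ± 0.12, edgeR adjusted p = 0.811). Tumor libraries had 34.0, 32.8, 32.7, 28.4 and 22.3 CPM, under all node libraries. The log2 fold change was -0.88 ± 0.12 against TdLN and -0.81 ± 0.12 against NdLN (edgeR adjusted p = 1.9e-05 and 3.6e-05). This was the smallest tumor difference of the 9 genes, and it changed direction with endothelial scaling. It then became 0.57 ± 0.21 and 0.91 ± 0.21, with edgeR adjusted p of 0.0183 and 0.000632. Tumor 1, at 107 CPM on that scale against 49.0 to 57.1 in the other Tumor libraries, set part of this size. Without it the endothelial-scaled values were 0.30 and 0.64 (edgeR adjusted p = 0.0315 and 0.000141). The direction for Nfkb1 in the tumor depends on the scaling. With all libraries, its endothelial-scaled values lay under the median of all genes on that scale, 1.48 and 1.74.

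Nfkb2, on chromosome 19 (46304320 to 46312385, plus strand), encodes p100 and p52. Its exons overlap those of Psd on the other strand. The strand setting of the counts was not given, so whether reads of the shared part were told apart is not known. Nfkb2 was at 369, 329, 416, 425 and 413 CPM in NdLN and at 348, 397, 332, 401 and 372 CPM in TdLN libraries. These groups overlapped, and the log2 fold change was -0.08 ± 0.18 (edgeR adjusted p = 0.870). Tumor libraries had 22.3, 46.1, 52.6, 54.3 and 52.8 CPM, and Tumor 1 lay far under the other 4. The log2 fold change was -3.02 ± 0.20 against TdLN and -3.10 ± 0.20 against NdLN (edgeR adjusted p = 5.8e-09 and 4.0e-09). Without Tumor 1 these were -2.85 and -2.92, and with endothelial scaling -1.67 and -1.49.

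Relb, on chromosome 7 (19606217 to 19629438, minus strand), encodes the partner of p52. Relb was at 328, 326, 347, 319.8 and 355 CPM in NdLN libraries. TdLN libraries had 277, 351, 142, 384 and 329 CPM, where the low value is that of TdLN 3. The node groups overlapped, and the log2 fold change was -0.18 ± 0.19 (edgeR adjusted p = 0.682). Without TdLN 3 it was near 0. Tumor libraries were tightly grouped at 39.3, 44.0, 35.2, 40.2 and 39.2 CPM. Against TdLN the log2 fold change was -2.90 ± 0.20 and against NdLN -3.08 ± 0.20 (edgeR adjusted p = 1.1e-08 and 5.4e-09). With endothelial scaling these were -1.48 and -1.37.

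Nfkb2 was further down than Nfkb1 in Tumor libraries, where RNA of other cells can enter both counts. The log2 ratio of Nfkb2 to Nfkb1 counts was 3.02, 2.47, 3.10, 2.92 and 2.94 in NdLN and 2.64, 2.64, 2.66, 2.97 and 2.78 in TdLN libraries. In Tumor libraries it was -0.61, 0.49, 0.68, 0.93 and 1.24, and Tumor 1 was the only library with fewer Nfkb2 than Nfkb1 counts. The difference was -2.19 against TdLN and -2.34 against NdLN, without overlap (exact permutation p = 0.00794 for each, adjusted 0.0119). Leaving out Tumor 1 gave -1.90 and -2.05. Between the nodes it was -0.15 (exact permutation p = 0.270, adjusted 0.278). Without NdLN 2 that node difference was -0.26 (exact permutation p = 0.0317).

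The remaining feedback genes are Tnfaip3 and Birc3. Tnfaip3, on chromosome 10 (19000910 to 19015657, minus strand), encodes A20, a ubiquitin-editing enzyme that ends receptor signaling. Tnfaip3 was at 226, 253, 321, 299.6 and 388 CPM in NdLN and at 163, 141, 162, 247 and 206 CPM in TdLN libraries. TdLN values were mostly lower but overlapped NdLN, and the log2 fold change of -0.70 ± 0.32 did not pass the test (edgeR adjusted p = 0.268). With only the TdLN and NdLN libraries in the fit it was -0.69 and just passed, with an edgeR adjusted p of 0.0495. Over all alternatives the adjusted p ran from 0.0495 to 0.455. Tumor libraries were at 9.79, 18.2, 45.1, 19.2 and 35.5 CPM, the widest relative spread of the 9 genes, at 56.1% of the mean. Against TdLN the log2 fold change was -2.84 ± 0.34 and against NdLN -3.54 ± 0.35 (edgeR adjusted p = 3.4e-06 and 3.8e-07). With endothelial scaling these were -1.53 and -1.96.

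Birc3, on chromosome 9 (7848699 to 7873186, minus strand), encodes cIAP2, a ubiquitin ligase of receptor complexes that also takes part in the turnover of NIK. Birc3 was at 201, 176, 276, 219 and 278 CPM in NdLN and at 171, 143, 213, 226 and 200.2 CPM in TdLN libraries, with overlap (log2 fold change -0.27 ± 0.16, edgeR adjusted p = 0.410). In Tumor libraries it was at 8.84, 12.4, 12.7, 8.93 and 9.56 CPM. The log2 fold change was -4.18 ± 0.19 against TdLN, an 18.1-fold difference, and -4.45 ± 0.19 against NdLN (edgeR adjusted p = 8.4e-11 and 4.5e-11). With endothelial scaling these were -2.78 and -2.81.

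Vcam1 showed the largest tumor difference of the 9 genes. It lies on chromosome 3 (116109949 to 116129688, minus strand), and its exons overlap an antisense gene, Gm43109, that is not in the table. Vcam1 was at 1248, 1077, 1744, 1345 and 1488 CPM in NdLN and at 1103, 941, 1464, 1354 and 1283 CPM in TdLN libraries. The node groups overlapped, and the log2 fold change was -0.17 ± 0.22 (edgeR adjusted p = 0.745). Tumor libraries had 13.7, 13.5, 16.5, 7.12 and 20.3 CPM, from 248 to 702 counts. This is 86.3-fold lower than TdLN and 96.9-fold lower than NdLN, with edgeR adjusted p of 6.8e-11 and 5.1e-11. Over all alternatives, endothelial scaling included, the log2 fold change ranged from -6.63 to -4.98 against TdLN and from -6.83 to -4.90 against NdLN.

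Icam1 lies on chromosome 9 (21015985 to 21028817, plus strand), with exons that overlap the antisense gene Gm47079, which is not in the table. Icam1 was at 962, 838, 1357, 987 and 1113 CPM in NdLN and at 748, 768, 968, 956 and 703 CPM in TdLN libraries. Values overlapped, and the log2 fold change of -0.34 ± 0.15 did not pass the test (edgeR adjusted p = 0.258). Tumor libraries had 87.3, 94.9, 80.9, 120.1 and 122 CPM, all under the nodes. Against TdLN the log2 fold change was -3.04 ± 0.17, an 8.20-fold difference, and against NdLN -3.38 ± 0.17, a 10.4-fold difference (edgeR adjusted p = 6.8e-10 and 2.2e-10). With endothelial scaling these were -1.59 and -1.69.

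The genes of the integrin ligands changed unequally, in counts that RNA of other cells can enter. The log2 ratio of Vcam1 to Icam1 counts was 0.38, 0.36, 0.36, 0.45 and 0.42 in NdLN and 0.56, 0.29, 0.60, 0.50 and 0.87 in TdLN libraries. In Tumor libraries it was -2.67, -2.81, -2.29, -4.07 and -2.58, with Tumor 4 the lowest. Node libraries held more Vcam1 than Icam1 reads and Tumor libraries fewer. The difference was -3.45 against TdLN and -3.28 against NdLN (exact permutation p = 0.00794 for each, adjusted 0.0119). Between the nodes it was 0.17 (exact permutation p = 0.0873, adjusted 0.112), and 0.24 without TdLN 2 (exact permutation p = 0.00794).

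**Figure D4:**
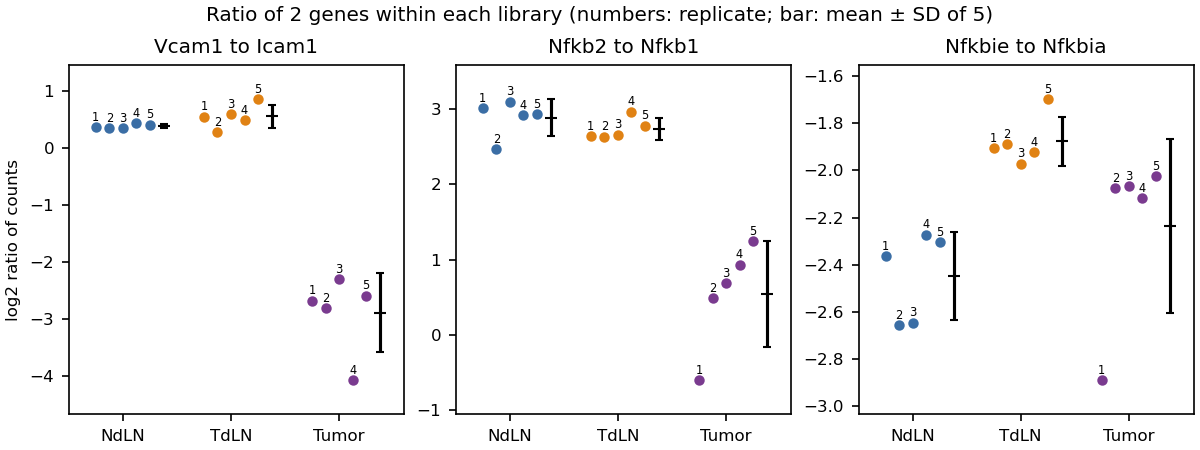
Log2 ratio of the counts of 2 genes within each library, for 3 pairs; points are libraries numbered by replicate and bars are mean ± SD of 5. The Vcam1 to Icam1 and Nfkb2 to Nfkb1 ratios are lower in all Tumor libraries than in all node libraries, and the Nfkbie to Nfkbia ratio is higher in all TdLN than in all NdLN libraries.

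To compare genes roughly, CPM was divided by the joined length of all annotated exons of a gene. This length, 12061 bases for Nfkb1 and 8870 for Vcam1, can exceed that of the transcript in use and then lowers the value. By CPM alone, Vcam1 (mean 1381) was above Icam1 (1051) in NdLN. Per kilobase of exon, Nfkbia was highest in every group, at 1366 ± 157 CPM per kilobase in NdLN, 994 ± 84.6 in TdLN and 203 ± 22.8 in Tumor (SD, n = 5). In NdLN it was followed by Icam1 (241), Vcam1 (156), Nfkbie (132), Relb (86.2), Nfkb2 (85.2), Birc3 (45.9), Tnfaip3 (41.2) and Nfkb1 (4.37), all as mean CPM per kilobase. Neighbors overlapped over libraries except after Nfkbia, Nfkbie, Nfkb2 and Tnfaip3. In Tumor the order was Nfkbia, Icam1 (23.2), Nfkbie (22.9), Relb (10.2), Nfkb2 (9.96), Tnfaip3 (3.54), Nfkb1 (2.49), Birc3 (2.09) and Vcam1 (1.61) on the same scale. There, Icam1 and Nfkbie overlapped, as did all neighbors from Relb on. In TdLN the order was that of NdLN except that Nfkbie (143) stood above Vcam1 (139) and Nfkb2 (80.7) above Relb (76.3), each with overlap. Vcam1 moved from the third place in NdLN to the last in Tumor libraries.

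Over the 15 libraries, likeness of pattern was measured as the root mean square difference of centred log2 CPM, so that 0 is an identical profile. Compared were 9175 genes whose log2 CPM averaged 3 or more. Among the 9 genes, Nfkbie and Nfkb2 were most alike (0.32), and Nfkb1 and Vcam1 were least alike (2.73). The gene nearest to Nfkbia was Ier2 at 0.18, followed by Gadd45b at 0.19. Timp3 was nearest to Nfkbie at 0.14 and Jak3 was nearest to Nfkb2 at 0.15. Atp8a1 was nearest to Relb at 0.28, Ppm1l to Tnfaip3 at 0.37 and Meox2 to Birc3 at 0.23. Bst1 was nearest to Vcam1 at 0.19, ahead of Ces2g at 0.33, and Tgfbi was nearest to Icam1 at 0.24. Nfkb1 had 4932438A13Rik at 0.14, Arfgap3 at 0.14 and Tspan14 at 0.15 as its nearest genes.

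The other pathway genes give the setting of the 9. Between the nodes, 0 of 7 tested ligands, 0 of 14 receptors, 0 of 18 adaptors and kinases, 0 of 2 further Rel subunits and 0 of 17 further inhibitors passed the edgeR test. Of these 58 genes, 14 had an unadjusted p under 0.05 in edgeR, and DESeq2 called 2 and limma's voom 5. Both tools also called more genes than edgeR over the whole table. The share of all genes under the unadjusted threshold was not counted, so these counts are not read as a shift of the pathway. Among 14 inducible chemokines and cytokines, Ccl20 and Cxcl9 were higher in TdLN and Ccl7 and Cx3cl1 were lower. Ccl20, the ligand of CCR6, was at 33.1 to 118 CPM in NdLN and 402 to 934 CPM in TdLN, which is 2.90 ± 0.52 on the log2 scale (edgeR adjusted p = 0.00676). Cxcl9, an interferon-induced ligand of CXCR3, changed by 2.41 ± 0.52 (edgeR adjusted p = 0.0192). Ccl7 fell by 1.46 ± 0.21 and Cx3cl1 fell by 1.41 ± 0.24 on the log2 scale (edgeR adjusted p = 0.00252 and 0.00481). Of 15 further adhesion genes, Jam2 alone was called, at -1.79 ± 0.38 (edgeR adjusted p = 0.0184). With endothelial scaling, the 4 chemokines were still called and Jam2 was not.

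Of genes that act upstream in the alternative branch, which formed no list of their own and were brought together after their values were seen, Ltb, Map3k14, Tnfrsf11a and Birc2 were lower in Tumor than in TdLN. Ltb, a lymphotoxin chain, was at 232 to 386 CPM in TdLN and 4.02 to 13.4 CPM in Tumor libraries, a change of -5.20 ± 0.34 in log2 (edgeR adjusted p = 6.0e-09). Map3k14, the gene of NIK, was at 42.4 to 68.2 CPM in TdLN and 0.860 to 4.86 CPM in Tumor, a change of -4.06 ± 0.33 (edgeR adjusted p = 5.6e-08). Tnfrsf11a, the gene of RANK, changed by -3.64 ± 0.34 and Birc2, the gene of cIAP1, by -4.35 ± 0.22 (edgeR adjusted p = 2.7e-07 and 2.7e-10). These 4 were lower on the endothelial scale too, at -3.77, -2.75, -2.32 and -2.93. Others of that branch were not lower on both scales. Ltbr was called lower, at -0.40 ± 0.11 (edgeR adjusted p = 0.0059), and turned to 1.00 with endothelial scaling. Cd40 was higher, at 1.16 ± 0.19 and 2.61 with endothelial scaling. Traf2 and Traf3, whose products help degrade NIK, were called lower, at -0.74 and -0.71 (edgeR adjusted p = 7.2e-06 and 0.0089). With endothelial scaling they were at 0.74 and 0.70. Chuk, the gene of the kinase IKK-alpha, was at 0.24 ± 0.18 (edgeR adjusted p = 0.263) and 1.65 with endothelial scaling. The median of all genes on that scale was 1.48, with Ltbr, Traf2 and Traf3 under it and Cd40 and Chuk above it. Tnfsf11, the gene of RANK ligand, was at -1.25 ± 1.08 (edgeR adjusted p = 0.328).

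By role, and beside the 30.1% of all genes that were lower and 31.9% that were higher, 2 of 7 tested ligands were lower and 1 was higher in Tumor than in TdLN, with Il33, an alarmin, at -4.34 ± 0.33 and Il1b at 4.22 ± 1.31. Il1b was low everywhere, at up to 0.949 CPM in TdLN and 0.446 to 13.6 CPM in Tumor libraries. Of 14 receptors, 8 were lower and 4 higher, with Tlr2 and Tlr4 at -2.91 ± 0.11 and -3.44 ± 0.24. Of 18 adaptors and kinases, 10 were lower and 1 was higher. Of the further Rel subunits, Rel was lower at -1.79 ± 0.23. Rela, which encodes p65, was at 96.7 to 289 CPM in TdLN and 58.1 to 145 CPM in Tumor, with a fold change of -0.65 ± 0.30 that did not pass (edgeR adjusted p = 0.0676), and with endothelial scaling it was 0.74 (edgeR adjusted p = 0.0444). Of 17 further inhibitors and feedback genes, 13 were lower, with Nfkbid at -4.17 ± 0.31, Traf1 at -3.09 ± 0.21 and Nfkbiz at -2.82 ± 0.21. On the endothelial scale, where 8.46% of all genes were lower and 72.5% higher, the balance of these lists changed. There 2 of 7 ligands were lower and 2 higher, and 4 of 14 receptors were lower and 7 higher. Of 18 adaptors and kinases 2 were lower and 13 higher, and of 17 inhibitors 5 were lower and 7 higher. Rel was no longer called.

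Induced chemokines and cytokines went both ways in the tumor, with 7 of 14 lower and 5 higher than in TdLN. Csf1, the macrophage growth factor gene, went from 1101 to 1783 CPM in TdLN to 29.5 to 119 CPM in Tumor, a change of -4.41 ± 0.34 in log2. Ccl20 was at no more than 1.23 CPM in any Tumor library. Ccl2, a monocyte chemokine, was higher in Tumor, at 148 to 254 against 73.6 to 113 CPM, a change of 1.23 ± 0.19 (edgeR adjusted p = 5.1e-05). Of the 15 further adhesion genes, 10 were lower and 2 higher than in TdLN. Glycam1 and Madcam1, ligands of lymphocyte homing receptors, were at 1675 to 2392 and 807 to 1075 CPM in TdLN and at no more than 4.38 and 3.52 CPM in Tumor. Jam3, a junctional adhesion molecule, changed by -4.75 ± 0.20 (edgeR adjusted p = 6.2e-11). These 3, Csf1 and Ccl20 were lower with endothelial scaling too. On that scale 3 of the 14 chemokines and cytokines were lower and 7 higher, and 7 of the 15 adhesion genes were lower and 5 higher. Pecam1 (-0.76) and Esam (-0.56) are among these 7 lower genes. Both also belong to the 10 genes that set the scale, so their values there are not independent of it.

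**Figure D5:**
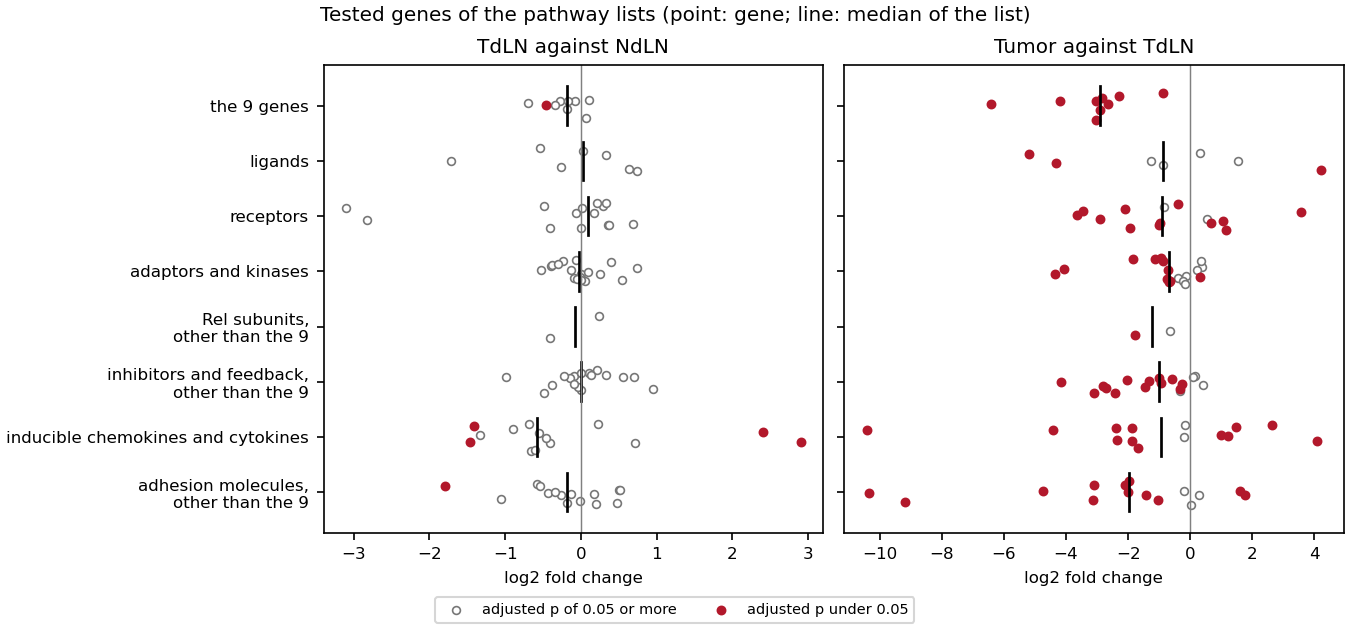
Log2 fold change of each tested gene of the pathway lists for TdLN against NdLN and Tumor against TdLN (TMM scaling); filled points have an adjusted p under 0.05 and the line is the median of the list. In the tumor the 9 genes lie between -6.43 and -0.88, while the chemokines and cytokines lie on both sides of 0.

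Markers of other cells moved with the comparisons. Between the nodes, 4 of 10 blood endothelial markers were lower in TdLN, with a median log2 fold change of -1.03, and their sums overlapped (1935 to 6304 CPM in NdLN, 1331 to 5815 CPM in TdLN). The 10 lymphocyte markers had a median of -1.90, with 0 called by edgeR (5 at an unadjusted p under 0.05), 0 by DESeq2 and 1 by limma's voom. Here too the share of all genes under the unadjusted threshold was not counted. The lymphocyte markers summed to 3.51 to 35.2 CPM in NdLN, 2.42 to 10.6 CPM in TdLN and 5.83 to 11.2 CPM in Tumor libraries. The part of such cells in the node differences was not tested. The 10 fibroblast markers summed to 144 to 535 CPM in node and 920 to 5895 CPM in Tumor libraries, and 8 of 10 were higher in Tumor than in TdLN. The 10 macrophage markers summed to 46.2 to 143 CPM in node and 113 to 251 CPM in Tumor libraries, with 9 of 10 higher. The 10 blood endothelial markers summed to 1331 to 6304 CPM in node and 836 to 1471 CPM in Tumor libraries. They went both ways, with 4 lower and 3 higher in Tumor than in TdLN. Plvap alone ran from 314 to 5096 CPM in TdLN and from 117 to 802 CPM in Tumor libraries. No marker was at 0 in all libraries of a group. RNA of melanoma and stromal cells adds to the total against which CPM is counted, and its part in the lower values of the 9 genes was not tested beyond the endothelial scaling.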

How the data were processed

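RNA of sorted lymphatic endothelial cells was sequenced as single reads of 50 bases after low-input amplification, per the labels' protocols. The authors deposited a table of raw counts, whole numbers per gene that were not normalized. The submitters' processing notes name STAR 2.4, CASAVA 1.8.2, featureCounts 1.4.6 and build GRCm38. The annotation release and any strand setting were not given in the sources used here. IDs were matched to GENCODE M21 (21628 of 21839), which gave the coordinates and exon lengths.

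Groups came from the sample labels. Genes kept by filterByExpr were tested with edgeR 4.0.16 (R 4.3.3; TMM factors, glmQLFit with robust estimation, glmQLFTest) on all 15 libraries in 1 fit, with Benjamini-Hochberg adjustment over 13887 genes and a threshold of 0.05. The SE was derived from the F statistic. Ratios used counts with 1 added, and exact two-sided permutation tests over libraries. The edgeR step was also run on counts simulated from its own model, with known folds for TdLN against NdLN. This cannot show whether the model holds for the data, and the Tumor comparisons were not assessed in it. The members, lists and tests were chosen with earlier results of these data known. Named pathway genes were up to 4 called genes per list and comparison with the smallest adjusted p, and the text gives part of them. Alternatives were RLE factors, scaling to 10 endothelial genes, no filter, a filter of 10 CPM in 5 libraries, voom with quality weights in limma 3.58.1, DESeq2 1.42.0, fits of only the compared groups, a replicate block, a pseudocount of 0.5 for ratios and each library left out. Endothelial scaling without Tumor 1 was added after seeing the data. Ligands Lta, Tnfsf14 and Cd40lg did not pass the filter on low counts, and Cd99 and Slc45a2 were not matched by symbol.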

Additional observations from a re-analysis of the deposited data

Results flagged for a closer look

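In 36 groups of 5 libraries (the 9 genes and the 3 ratios in each site), the highest or lowest library was compared with the range of its group, and 3 groups held a library far from the others. Chance gives this in about 1 of 20 groups. Nfkb2 was at 22.3 CPM in Tumor 1, against 46.1 to 54.3 CPM in the other Tumor libraries. The log2 ratio of Nfkbie to Nfkbia was -2.89 in Tumor 1, against -2.12 to -2.03 in the other Tumor libraries. Tumor 1 is also the library with the lowest endothelial genes, and the part of this in both values was not tested. The log2 ratio of Nfkb2 to Nfkb1 was 2.47 in NdLN 2, against 2.92 to 3.10 in the other NdLN libraries.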

How the results depend on the processing

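Under RLE factors, no filter, the stricter filter, DESeq2 and voom, each of the 9 genes kept its direction and its side of the threshold in all 3 comparisons. Genes changed between TdLN and NdLN were 484 in the main fit, 972 with DESeq2, 818 with voom, 281 with endothelial scaling and 225 to 564 when 1 library was left out. Endothelial scaling split the calls into 245 higher and 36 lower there, and into 10071 and 1175 for Tumor against TdLN and 10515 and 1116 for Tumor against NdLN. The genes lower in TdLN among the 9 numbered 1 in the main fit, 0 with endothelial scaling, 2 with only the compared groups in the fit and 0 to 1 with 1 library left out. With endothelial scaling, 1 of the 9 was higher in each Tumor comparison, with or without Tumor 1. This was Nfkb1, at 0.57 and 0.91 with Tumor 1 and 0.30 and 0.64 without it. The cause was not tested. With 1 library left out, the node difference ranged from 0.10 to 0.24 for Vcam1 to Icam1 and from -0.26 to -0.10 for Nfkb2 to Nfkb1, and Nfkbie to Nfkbia in Tumor against NdLN ranged from 0.16 to 0.38.

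Libraries with the same number in 2 groups deviated together weakly at best (r from -0.21 to 0.25 over 15 pairs, above 0.1 in 4), and not every library correlated best with its own number, so the numbers were not taken to pair the samples. With a replicate block, edgeR called 400, 8381 and 8995 genes, and the calls among the 9 were the same, with an edgeR adjusted p of 0.0486 for Nfkbia in TdLN against NdLN. For ratios, a replicate block allows no exact sign-flip p under 0.0625, so no ratio can pass: Vcam1 to Icam1 stayed at -3.45 and -3.28, Nfkb2 to Nfkb1 at -2.19 and -2.34, and Nfkbie to Nfkbia at 0.57 for the nodes and -0.36 for Tumor against TdLN. Depth was not the limit for any of the 9 genes, with 216 counts or more in each library.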

Other observations

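Some endothelial adhesion genes (Icam2, Cd34 and Cd44) did not follow Vcam1 and Icam1, while Sele did and Selp did by TMM scaling only. These genes were picked after their values were seen. Icam2, a ligand of the same integrin as Icam1, was at 342 to 442 CPM in TdLN and 286 to 411 CPM in Tumor libraries, and these groups overlapped. The log2 fold change was -0.21 ± 0.11 (edgeR adjusted p = 0.0955), and 1.27 with endothelial scaling. Cd34, a sialomucin, and Cd44, the hyaluronan receptor, were higher in Tumor than in TdLN by 1.60 ± 0.22 and 1.76 ± 0.20 on the log2 scale (edgeR adjusted p = 1.7e-05 and 2.2e-06). Sele and Selp, the endothelial selectin genes, were lower in Tumor by TMM scaling, at 0.778 to 5.76 and 2.78 to 12.6 CPM against 17.3 to 41.7 and 18.9 to 33.6 CPM in TdLN. With endothelial scaling Sele was still lower, at -1.81 (edgeR adjusted p = 0.000338), and Selp, at -0.60, was not called (edgeR adjusted p = 0.104). Cd34 and Cd44 are also made by fibroblasts and other stromal cells, whose markers were higher in Tumor libraries, and the part of such cells in these values was not tested.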
